A study of Rattus norvegicus with 12 samples.

Results

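Cytosolic sulfotransferases move the sulfonate group of the donor PAPS onto hydroxyl and amino groups of hormones, bile acids, drugs and dietary phenols, which makes most of them water-soluble and ends hormone activity. The SULT1 enzymes act mainly on phenols, thyroid hormones and estrogens, and the SULT2 enzymes on hydroxysteroids and bile acids. In rat liver the family is known for sex-dependent expression set by the pattern of growth hormone release, and for control by steroids and nuclear receptors. The 5 genes described here are Sult1a1, Sult1b1, Sult1e1, Sult2a1 and Sult2a2. They were chosen by name: 9 of the 41012 probes of the array carry one of these names or an older one (the Sult1e1 probe is called Ste in the file), and 8 of the 9 were bright enough to be kept. Each of the 5 genes had a kept probe, out of 24316 genes measured, but the Sult1e1 probe was kept through its male arrays alone.

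The series asks how glucocorticoids regulate liver genes in the sexes. The 4 groups of adrenalectomized Sprague-Dawley rats aged 8 to 10 weeks were compared 6 h after injection: females given dexamethasone, a synthetic glucocorticoid, at 1 mg/kg i.p., females given vehicle, males given dexamethasone at the same dose, and males given vehicle. All females were labelled Diestrous 1, and all animals lacked adrenal glands, so the vehicle groups had no adrenal steroids either. Each group had 3 single-colour Agilent arrays, each carrying RNA pooled from 3 rats (9 rats per group), so every p-value rests on the spread among pools. A level below is log2 of the spot signal minus the 75th percentile of its array. A difference is one of mean levels with its standard error, n = 3 arrays in each group, and a gene was called at a limma adjusted p under 0.05 over all genes of that comparison. Levels of different probes cannot be set against each other.

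Facts of the arrays touch all results. Tsc22d3, which encodes the glucocorticoid-induced protein GILZ, rose by 2.84 ± 0.24 in females and 3.20 ± 0.24 in males, and Fkbp5, a co-chaperone of the glucocorticoid receptor, rose by 4.54 ± 0.20 and 4.17 ± 0.18 (for Fkbp5 1 flagged spot left 2 arrays of females after dexamethasone). The 4 arrays of slide 5, replicate 3 of each group, were dimmer (53.0% to 61.8% of spots well above background) than the other 8 (62.7% to 69.7%). Females after dexamethasone 1 and 2 shared slide 4, which held no other group, so values with slide as a block are given too. In that fit slide 4 carries no comparison of groups, nor does slide 3, which held males after vehicle 1 alone. The level of females after dexamethasone then rests on replicate 3, on slide 5. For that group, block values and values within slide 5 are therefore not separate checks. Hepatocyte markers, 6 of 6 measured, had summed levels, on the linear scale, from 6044 to 6512 in females after dexamethasone and 4377 to 6013 in females after vehicle, against 4560 to 6149 in males after dexamethasone and 2971 to 5883 in males after vehicle. Of the 4 measured T and NK cell genes 3 fell in each sex, and they summed to 0.788 to 0.962 in females after dexamethasone against 2.30 to 4.19 after vehicle, and to 0.886 to 1.06 against 2.45 to 3.16 in males. The 4 sinusoidal endothelial genes summed to 9.60 to 24.4 against 41.4 to 67.9 in females and 21.9 to 30.5 against 33.6 to 47.1 in males, but they did not move as one: Lyve1 rose in both sexes and Kdr fell in females. Of 4 stellate cell genes 2 fell in females and 1 in males, with sums of 2.86 to 3.06 against 7.67 to 9.41 and 5.81 to 6.46 against 8.41 to 11.2, and of 5 Kupffer cell genes 0 were called in either sex. The 2 neutrophil genes measured fell in both sexes (median differences -3.09 in females and -2.69 in males), as did the 1 B cell gene measured (-2.43 and -2.28). Of all genes 24.3% were called in females (12.6% lower) and 20.1% in males (10.8% lower). The part of these shifts in the sulfotransferase results was not tested, and in whole liver fewer cells of a type cannot be told apart from less RNA per cell.

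Dexamethasone raised Sult1a1 in both sexes and Sult1b1 in females, and lowered Sult1e1 and Sult2a1 in males. Sult2a2 was called lower in males on its brightest probe alone. In males 4 of the 5 genes were called, 1 higher (Sult1a1) and 3 lower (Sult1e1, Sult2a1 and Sult2a2), where 20.1% of all genes were called (9.34% higher and 10.8% lower). In females 2 of the 4 genes measured above background were called, Sult1a1 and Sult1b1, both higher, where 24.3% of all genes were called (11.7% higher and 12.6% lower). Centring the arrays on their medians instead turns the split of the female calls to 65.2% higher of 5809 genes, against 48.1% of 5917, and shifts the median of all genes by 0.20. Between the sexes the count leaves out Sult1e1, which was below background in females and kept through its male arrays. After dexamethasone 2 of the other 4 genes were called, Sult2a1 and Sult2a2, both higher in females, where 2.31% of all genes were called (1.27% higher and 1.04% lower). After vehicle 4 of the 4 were called, Sult2a1 and Sult2a2 higher and Sult1a1 and Sult1b1 lower, where 1.71% of all genes were called (0.74% higher and 0.966% lower). The Sult1b1 call was lost with slide as a block (adjusted p = 0.136). The Sult2a2 call in males was also fragile. It was lost with slide as a block and in 7 of the 12 fits with 1 array left out. The other 2 Sult2a2 probes gave no call in males (adjusted p = 0.662 and 0.390, limma).

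**Figure D1:**
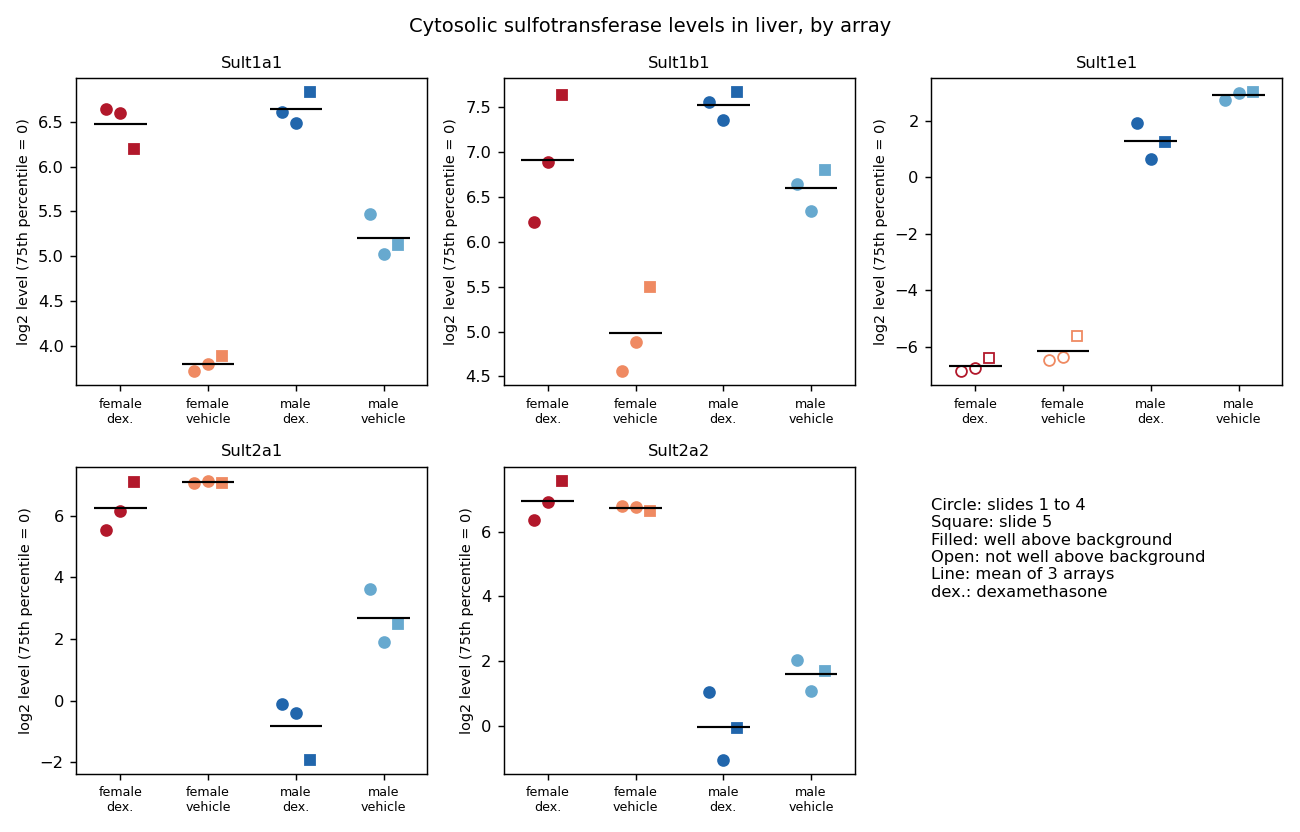
Levels of the 5 sulfotransferase genes on each of the 12 arrays (log2 signal, with the 75th percentile of the array at 0). Groups run from females after dexamethasone to males after vehicle, squares are the arrays of slide 5, open symbols are spots not well above background and lines are means of 3 arrays. Sult1a1 and Sult1b1 are higher after dexamethasone than after vehicle in both sexes, Sult1e1 is above background in males alone, and Sult2a1 and Sult2a2 are lower in males, most of all after dexamethasone.

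Sult1a1, the main phenol sulfotransferase of liver, rose in both sexes. Its level was 6.65, 6.60 and 6.20 in females after dexamethasone, against 3.72, 3.80 and 3.88 in females after vehicle. In males the level was 6.61, 6.49 and 6.83 after dexamethasone, against 5.48, 5.02 and 5.12 after vehicle. All 6 treated arrays were above all 6 vehicle arrays, and the females after vehicle were the lowest group. The rise was 6.42-fold in females (2.68 ± 0.18, adjusted p = 1.14e-05, limma) and 2.71-fold in males (1.44 ± 0.18, adjusted p = 0.000391). With slide as a block the rises were 2.26 (adjusted p = 0.00314) and 1.62 (adjusted p = 0.000961), and within slide 5 they were 2.32 and 1.71.

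The sex difference of Sult1a1 was seen after vehicle and not after dexamethasone. Females were 2.66-fold lower than males after vehicle (-1.41 ± 0.18, adjusted p = 0.00243), with no overlap of arrays. After dexamethasone the female minus male difference was -0.16 ± 0.18 (95% interval -0.57 to 0.24, adjusted p = 0.723), and the arrays overlapped. The dexamethasone effect was larger in females by 1.25 ± 0.26 (95% interval 0.67 to 1.82), which did not pass the test over all genes (adjusted p = 0.177) and was 0.64 with slide as a block. Of all genes 7 of 24316 (0.0288%) passed that limma test. Of the 4 members measured in both sexes 0 were called, and 3 (Sult1a1, Sult2a1 and Sult2a2) had an unadjusted p under 0.05, as did 2434 of all genes (10%).

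Sult1b1, which acts on thyroid hormones and small phenols, followed a like pattern with more spread. On its brighter probe the level was 6.22, 6.89 and 7.63 in females after dexamethasone, against 4.56, 4.88 and 5.49 in females after vehicle. The males had 7.56, 7.36 and 7.67 after dexamethasone, against 6.65, 6.35 and 6.80 after vehicle. No treated array overlapped a vehicle array of its sex, and in both female groups replicate 3, on slide 5, was the highest.

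The Sult1b1 rise was 3.83-fold in females (1.94 ± 0.34, adjusted p = 0.00259, limma). In males the difference of 0.93 ± 0.34 (95% interval 0.17 to 1.69) was not called, with an adjusted p of 0.0846. It was called with slide as a block (1.10, adjusted p = 0.0259), and also when females after dexamethasone 1 or 3 were left out (adjusted p = 0.0473 and 0.0387 at the same 0.93). The second probe gave 2.15 ± 0.33 in females (adjusted p = 0.00117) and 0.93 ± 0.33 in males (adjusted p = 0.0732), close to the first.

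Sult1b1 was 3.07-fold lower in females than in males after vehicle (-1.62 ± 0.34, adjusted p = 0.0442), and -0.61 ± 0.34 after dexamethasone (adjusted p = 0.432). The call after vehicle was fragile. It was lost with slide as a block (-1.37, adjusted p = 0.136), and without any one of 9 arrays: those of females after vehicle 1 and 2, males after vehicle 1, 2 and 3, males after dexamethasone 1, 2 and 3, and females after dexamethasone 2. The highest adjusted p of these was 0.171, at a difference of -1.41, without female vehicle 1. Over the 12 arrays the levels of Sult1a1 and Sult1b1 ran together (r = 0.875, a description of arrays that share treatment and sex).

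Sult1e1, the estrogen sulfotransferase, inactivates estradiol at low concentrations and is known in rat liver as a male gene. It was not well above background on any of the 6 female arrays. In males its level was 1.93, 0.65 and 1.24 after dexamethasone, against 2.72, 2.98 and 3.0 after vehicle. The treated arrays were all below the vehicle arrays.

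In males Sult1e1 fell 3.09-fold after dexamethasone (-1.63 ± 0.32, adjusted p = 0.00508, limma). With slide as a block the difference was -1.40 (adjusted p = 0.00408), and within slide 5 it was -1.76. Females had at least 51.1-fold lower Sult1e1 signal than males after dexamethasone (measured means -6.66 and 1.27, adjusted p = 1.31e-06) and at least 109-fold lower after vehicle (measured means -6.14 and 2.90, adjusted p = 9.05e-07). These bounds use the dimmest signal well above background on each female array, and no effect of dexamethasone in females can be given. Since the probe passed the filter through the males, a sex difference was bound to follow.

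The Sult1e1 and Sult1b1 genes are close neighbours on chromosome 14 of the reference, with Sult1d1 as the one coding gene between them. In males Sult1e1 fell while Sult1b1 was 0.93 higher without passing the test. Sult1d1 had no kept probe.

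**Figure D2:**
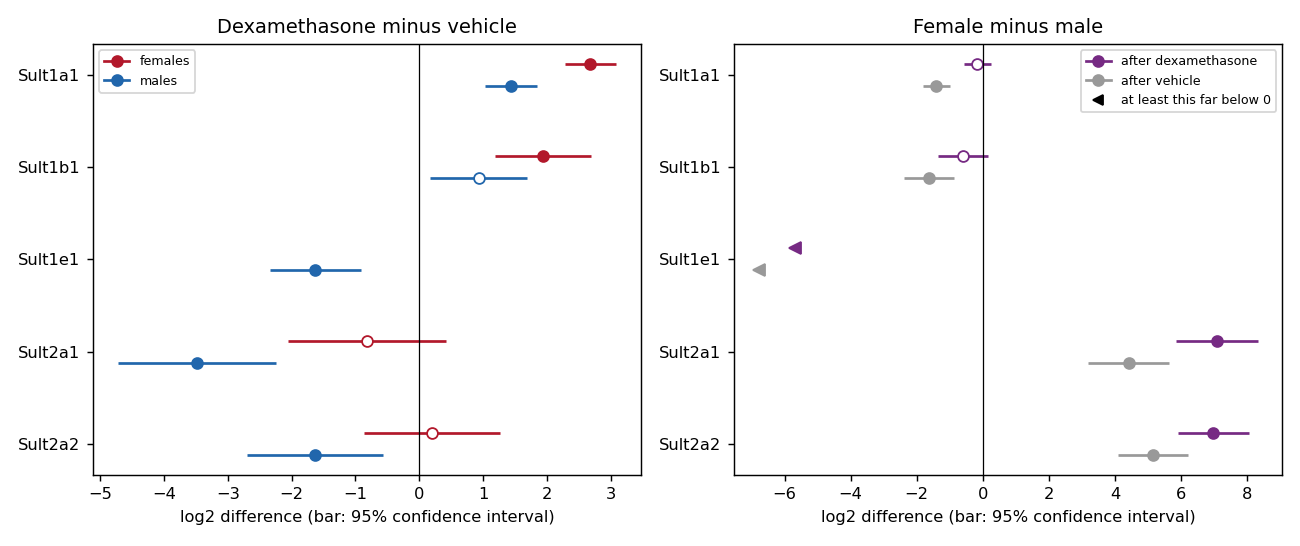
Log2 differences of the 5 genes with 95% confidence intervals from the limma fit, dexamethasone minus vehicle in females and males on the left and female minus male after dexamethasone and after vehicle on the right. Filled points passed an adjusted p under 0.05, and triangles are bounds for Sult1e1, which lay below background in females. Sult1a1 lies at 2.68 and 1.44 on the left and Sult2a1 at -3.49 in males, while Sult2a1 and Sult2a2 lie between 4.41 and 7.07 on the right.

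Sult2a1, a hydroxysteroid sulfotransferase that conjugates dehydroepiandrosterone and bile acids, fell in males, and its female difference was not called. Its level in females was 5.53, 6.16 and 7.09 after dexamethasone, against 7.06, 7.13 and 7.07 after vehicle. In males it was -0.12, -0.39 and -1.92 after dexamethasone, against 3.63, 1.91 and 2.50 after vehicle. The female groups overlapped, because replicate 3 after dexamethasone reached the vehicle level, and the male groups did not.

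The male fall of Sult2a1 was 11.2-fold (-3.49 ± 0.56, adjusted p = 0.00161, limma). It was -3.09 with slide as a block (adjusted p = 0.0100), -4.42 within slide 5, and -2.03 within slide 1 (males after dexamethasone 1 minus males after vehicle 2). In females the difference was -0.83 ± 0.56 (95% interval -2.06 to 0.41, adjusted p = 0.309). The slide block turned it to 0.30 (adjusted p = 0.824), and within slide 5 it was 0.021. The dexamethasone effects of females and males differed by 2.66 ± 0.79 (95% interval 0.91 to 4.41, adjusted p = 0.340), so a difference between the sexes in the response was not called.

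The female excess of Sult2a1 was 135-fold after dexamethasone (7.07 ± 0.56, adjusted p = 0.000122) and 21.2-fold after vehicle (4.41 ± 0.56, adjusted p = 0.00213). The slide block gave 8.21 and 4.82, both called. A second Sult2a1 probe, A_43_P13235, was not above background on any array. It was not kept. Both Sult2a1 probes carry that name in the file, and neither was matched to the gene by accession.

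Sult2a2, a close relative of Sult2a1 with overlapping steroid substrates, is measured by 3 probes, of which 1 was called in males. The sequences of the probes are shown because the family members are alike in sequence. The first pair share a stretch of 41 bases, in capitals, that differs at 2 positions (G35T and A57G, counted from the 5′ end of the first probe). The third Sult2a2 probe shares 20 bases with the probe of Sult2a6 (older name Smp2a), again in capitals, with 1 difference (A58C, counted in the Sult2a2 probe). The Sult2a1 probe comes last. Overlaps were searched between probes alone, and only those that run to the end of a probe. They were not searched against transcripts, so they do not show which transcripts a probe detects.
Sult2a2, A_44_P236314: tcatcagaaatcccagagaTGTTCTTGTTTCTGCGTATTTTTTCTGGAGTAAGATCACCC
Sult2a2, A_42_P608478: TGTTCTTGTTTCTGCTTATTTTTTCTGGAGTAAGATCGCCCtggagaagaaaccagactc
Sult2a2, A_44_P435973: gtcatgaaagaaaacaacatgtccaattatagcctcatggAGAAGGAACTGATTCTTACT
Sult2a6, A_44_P531565: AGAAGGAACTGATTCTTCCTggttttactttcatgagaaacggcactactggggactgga
Sult2a1, A_44_P175204: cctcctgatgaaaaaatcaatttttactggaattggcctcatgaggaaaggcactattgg

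On the brightest probe, A_44_P236314, which stands for the gene, Sult2a2 was 6.36, 6.91 and 7.56 in females after dexamethasone, against 6.80, 6.76 and 6.65 after vehicle. The males had 1.04, -1.05 and -0.08 after dexamethasone, against 2.02, 1.09 and 1.68 after vehicle. The male groups were apart by little, with 1.04 on the highest treated array and 1.09 on the lowest vehicle array, and the female groups overlapped.

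By that probe Sult2a2 fell 3.09-fold in males (-1.63 ± 0.48, adjusted p = 0.0365, limma). The call was lost with slide as a block (-1.14, adjusted p = 0.144), with the mean of the 3 probes (-1.08, adjusted p = 0.170), and in the fit of the male arrays alone (adjusted p = 0.108). It was also lost without any one of 7 arrays: males after dexamethasone 2 (-1.12, adjusted p = 0.110) and 3 (-1.60, adjusted p = 0.0913), males after vehicle 1 (-1.42, adjusted p = 0.110) and 3 (-1.59, adjusted p = 0.0935), females after dexamethasone 2 (adjusted p = 0.0533), and females after vehicle 1 (adjusted p = 0.0505) and 2 (adjusted p = 0.0518). Within slide 1 the difference was -0.048, and within slide 5 it was -1.77.

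The other Sult2a2 probes gave no call in males. A_44_P435973 gave -0.44 ± 0.55 (95% interval -1.66 to 0.78, adjusted p = 0.662) and A_42_P608478, the probe whose accession matches Sult2a2, gave -1.18 ± 0.83 (95% interval -3.03 to 0.67, adjusted p = 0.390). A_42_P608478 was well above background on 9 of 12 arrays, and 1 of 3 males after dexamethasone. In females no probe was called: 0.20 ± 0.48 (adjusted p = 0.791), 0.62 ± 0.55 (adjusted p = 0.446) and 1.63 ± 0.83 (adjusted p = 0.184).

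All 3 Sult2a2 probes showed the excess in females. The brightest gave 126-fold after dexamethasone (6.97 ± 0.48, adjusted p = 4.69e-05) and 35.3-fold after vehicle (5.14 ± 0.48, adjusted p = 0.000265), and with the slide block 7.57 and 5.98, both called. The 2 probes A_44_P435973 and A_42_P608478 gave 7.59 and 10.34 after dexamethasone, and 6.52 and 7.53 after vehicle. For A_42_P608478 1 of 3 male arrays after dexamethasone and 2 of 3 after vehicle were well above background, so its differences rest on dim male spots. The female minus male dexamethasone effect was 1.83 ± 0.68 on the brightest probe (95% interval 0.33 to 3.34) and was not called (adjusted p = 0.436).

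**Figure D3:**
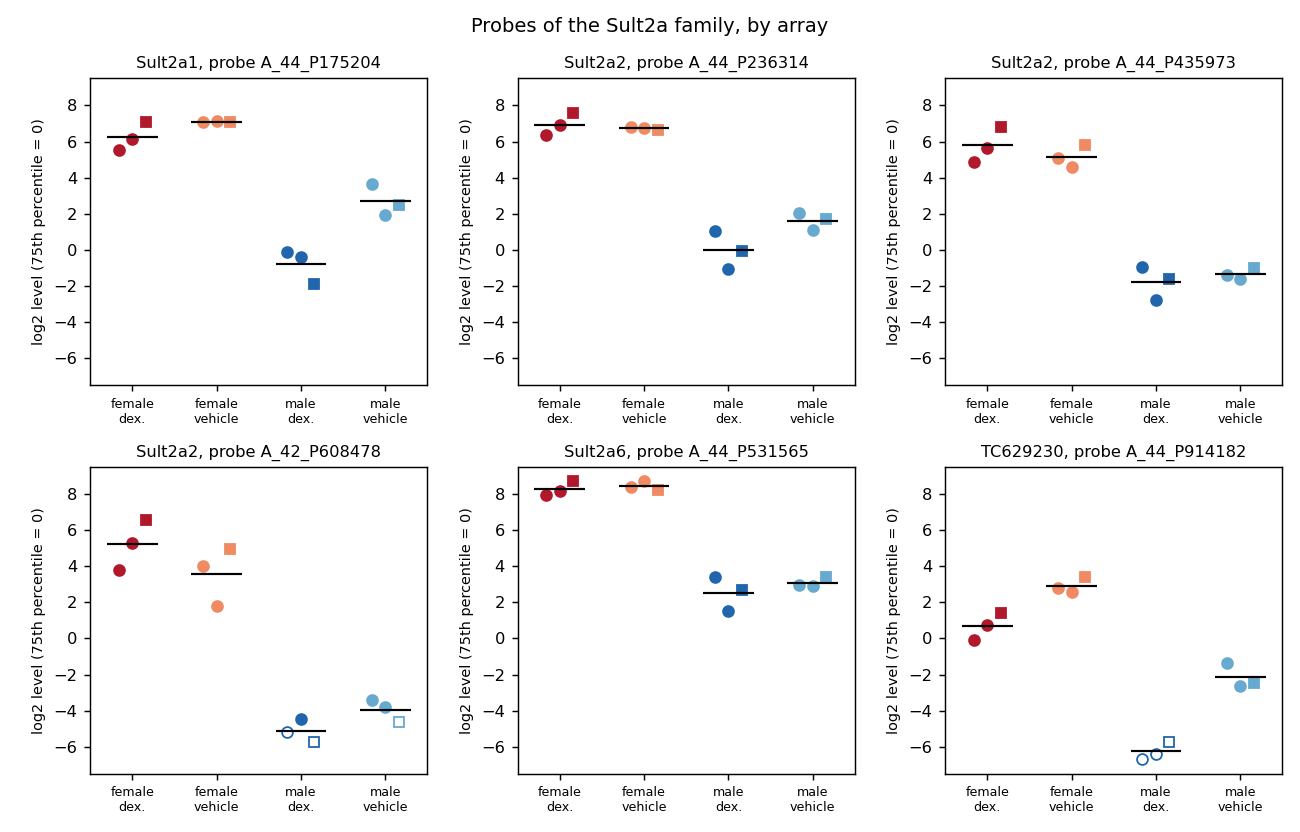
Levels on each array for the kept Sult2a1 probe, the 3 Sult2a2 probes, the Sult2a6 probe and the probe of the transcript TC629230, with symbols as in the plot of levels by array (squares for slide 5, open symbols for spots not well above background, lines for means of 3 arrays). All 6 probes are higher in females than in males, and the male fall after dexamethasone is widest for Sult2a1 and TC629230.

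Sult2a6, a further hydroxysteroid sulfotransferase known as a senescence marker protein, was not called for dexamethasone. It lies near Sult2a1 on chromosome 1, with the coding gene LOC134485278 between them. Its level was 7.95, 8.18 and 8.71 in females after dexamethasone, against 8.43, 8.72 and 8.25 after vehicle. In males it was 3.38, 1.5 and 2.70 after dexamethasone, against 2.96, 2.91 and 3.40 after vehicle. Treated and vehicle arrays overlapped in both sexes, and females exceeded males throughout.

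The dexamethasone differences of Sult2a6 were -0.19 ± 0.41 in females and -0.56 ± 0.41 in males (95% intervals -1.09 to 0.72 and -1.47 to 0.34). The female excess was 53.9-fold after dexamethasone and 41.5-fold after vehicle (adjusted p = 4.91e-05 and 7.00e-05). Over the 12 arrays Sult2a6 was the named gene most like Sult2a2 (r = 0.989), and Sult2a1 and Sult2a2 had r = 0.955. The file describes the transcript TC629230 as similar to a hydroxysteroid sulfotransferase and gives no gene symbol. Its level was -0.10, 0.76 and 1.42 in females after dexamethasone, against 2.78, 2.55 and 3.42 after vehicle. It fell in females by 2.23 ± 0.45 on the log2 scale (adjusted p = 0.00545), and in males, not above background after dexamethasone, it was at least 4.06-fold lower (measured means -6.26 and -2.15, adjusted p = 0.000168). With normexp background correction that male difference was -0.75 and not called (adjusted p = 0.0944).

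The upstream sequences of the 3 Sult2a genes are shown beside that of Sult1a1, because Sult2a1 and Sult2a6 are nearly the same there, with male differences of -3.49 and -0.56 (the gap between the 2 genes was not tested). Each is the 250 bases before the gene start in RefSeq, build GRCr8, on the minus strand of chromosome 1: Sult1a1 at chr1:190706113-190706362, Sult2a1 at chr1:84638948-84639197, Sult2a2 at chr1:85104533-85104782 and Sult2a6 at chr1:84097809-84098058. Capitals mark TGTTCT, the half-site of the glucocorticoid receptor's element, on either strand, and the inverted repeat GGGTCATGAACTT, which in rodents is known to bind FXR, PXR and CAR and was searched after these sequences had been seen.
Sult1a1: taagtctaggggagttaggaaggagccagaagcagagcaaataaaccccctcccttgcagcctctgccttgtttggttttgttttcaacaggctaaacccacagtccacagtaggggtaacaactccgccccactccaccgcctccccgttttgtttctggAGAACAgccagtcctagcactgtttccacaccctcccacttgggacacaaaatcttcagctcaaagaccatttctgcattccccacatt
Sult2a1: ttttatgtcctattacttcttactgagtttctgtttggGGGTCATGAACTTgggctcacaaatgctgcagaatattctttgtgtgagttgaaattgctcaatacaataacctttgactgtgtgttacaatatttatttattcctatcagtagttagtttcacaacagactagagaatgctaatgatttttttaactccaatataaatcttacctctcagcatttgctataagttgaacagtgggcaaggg
Sult2a2: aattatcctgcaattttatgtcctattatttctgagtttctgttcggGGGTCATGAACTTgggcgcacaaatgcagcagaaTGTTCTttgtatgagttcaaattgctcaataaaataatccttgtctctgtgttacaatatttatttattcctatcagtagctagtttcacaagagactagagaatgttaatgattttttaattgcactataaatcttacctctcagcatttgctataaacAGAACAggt
Sult2a6: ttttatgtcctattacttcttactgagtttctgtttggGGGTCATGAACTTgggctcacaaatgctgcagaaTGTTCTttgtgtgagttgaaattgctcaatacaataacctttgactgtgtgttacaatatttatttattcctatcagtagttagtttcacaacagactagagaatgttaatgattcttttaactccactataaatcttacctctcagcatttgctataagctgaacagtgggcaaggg

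The Sult2a1 and Sult2a6 stretches were identical at 245 of 250 positions, and Sult2a1 and Sult2a2 at 215 aligned positions with 22 mismatches and 26 gap positions. The inverted repeat is in 6 of the 33469 promoter windows of 300 bases (250 before and 50 after the start), 3 of which are these Sult2a genes. LOC134485278, between Sult2a6 and Sult2a1, and LOC120099768, also on chromosome 1, hold it too. The repeat was read from the Sult2a1 window and these Sult2a windows are alike, so its rarity is no count of independent sites. TGTTCT occurs in 20.7% of all windows, and here once in Sult1a1 (on the other strand), once in Sult2a6, at 2 places in Sult2a2 and at none in Sult2a1. The full element, AGAACA and TGTTCT spaced by 3 bases, was in none of the windows of the 5 members or Sult2a6 (0.0149% of all windows hold it), nor were the STAT5 motif TTCNNNGAA (8.87%) or the HNF4 repeat, 2 copies of AGGTCA spaced by 1 base (0.0538%). The HNF1 half-motif GTTAAT was found once each in Sult2a2 and Sult2a6 (7.45% of windows), and the C/EBP motif TTGCNNAA once in each of the 3 Sult2a genes (10.6%). The AGGTCA half-site was found in Sult1e1 alone of the 6 (16.2%), on the other strand, and TGAACT in Sult1b1 and the 3 Sult2a genes (14.5%), in the Sult2a genes as part of the inverted repeat and once more in Sult2a2. Such letters describe the windows and do not show binding.

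Of 20 other cytosolic sulfotransferase names, 7 had a kept probe. Dexamethasone lowered 3 of them in females and 2 in males and raised none (12.6% and 10.8% of all genes were called lower), with median differences of -1.21 and -0.95, against -0.075 and 0.012 over all genes. They were Sult1c2a, Sult1c3 and Sult4a1 in females and Sult1c2 and Sult1c2a in males. The Sult1c enzymes act on phenols and N-hydroxyarylamines. Sult1c2a fell by 1.23 ± 0.25 in females (adjusted p = 0.00528) and by 1.81 ± 0.25 in males (adjusted p = 0.000607). Sult1c2 fell by 1.91 ± 0.40 in males (adjusted p = 0.00695), and in females its difference of -1.21 ± 0.40 just missed the threshold (adjusted p = 0.0504). As Sult1c2 and Sult1c2a are close copies, their probes may share signal.

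All 6 male arrays had more Sult1c3 signal than any female array. It had 2.40 ± 1.05 in females after dexamethasone and 4.27 ± 0.76 in females after vehicle, against 6.20 ± 0.34 in males after dexamethasone and 7.15 ± 0.35 in males after vehicle (SD, n = 3 each). It fell by 1.88 ± 0.51 in females (adjusted p = 0.0231), a call lost in 3 of the 12 fits with 1 array left out (up to 0.0677 without female vehicle 3). With slide as a block it was -3.69 (adjusted p = 0.00470). Females were 13.9-fold lower than males after dexamethasone (adjusted p = 0.00312) and 7.33-fold lower after vehicle (adjusted p = 0.0182, up to 0.0766 without male vehicle 3). Sult4a1, a brain sulfotransferase, was dim. It was above background on 0 of 3 arrays in females after dexamethasone and 2 of 3 after vehicle, at least 2.92-fold lower (adjusted p = 0.0328, up to 0.107 without female vehicle 1, and 0.203 with slide as a block). Sult5a1 and Sult2b1 were not called in any comparison.

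Of 4 cofactor genes measured, 1 rose in each sex and none fell (medians 0.49 in females and 0.15 in males), a share near that of all genes (24.3% and 20.1% called). Papss1 and Papss2, which make PAPS from sulfate and ATP, were not called: their differences were -0.61 and 0.34 in females and -0.56 and 0.015 in males. Bpnt1, the phosphatase that removes the product PAP, rose by 0.76 ± 0.15 in females (adjusted p = 0.00563) and 0.51 ± 0.15 in males (adjusted p = 0.0414). The female call was lost with slide as a block (0.59, adjusted p = 0.0682). The male call was lost in 9 of the 12 fits with 1 array left out (up to 0.133 without male dexamethasone 1). Bpnt2, the Golgi counterpart, had 0.63 ± 0.32 in females and 0.29 ± 0.32 in males and was not called.

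**Figure D4:**
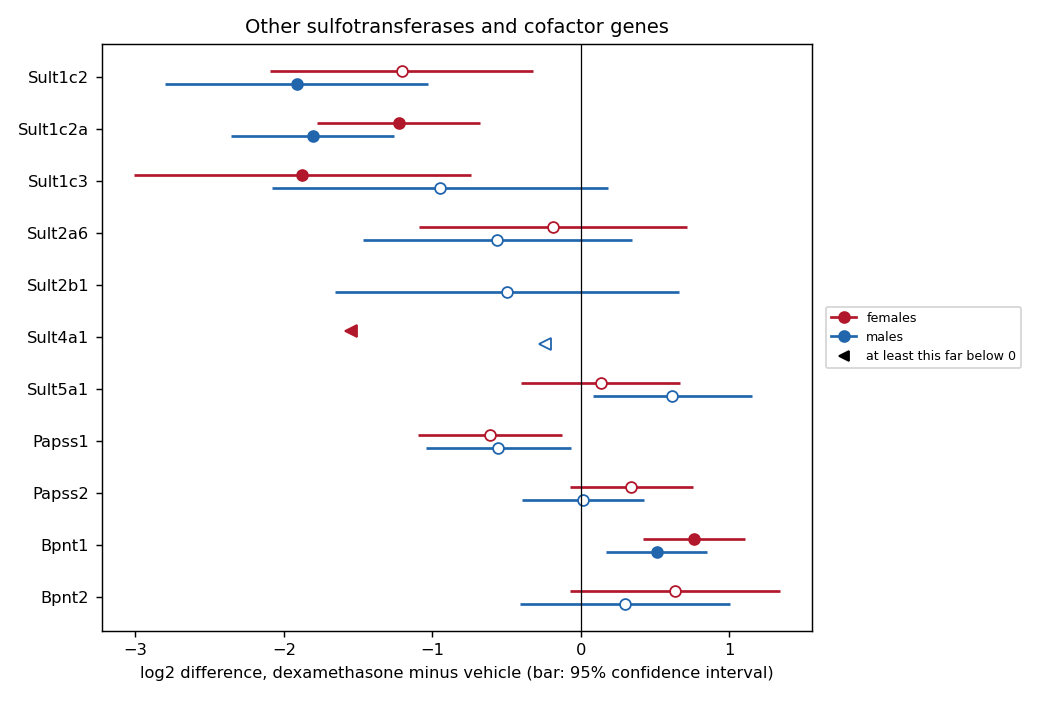
Log2 differences, dexamethasone minus vehicle, with 95% confidence intervals, for the 7 other sulfotransferase genes and the 4 cofactor genes that had a kept probe, females in red and males in blue. Filled symbols passed an adjusted p under 0.05, and triangles are bounds for Sult4a1, which was below background after dexamethasone. Sult2b1 has no value in females, where the vehicle group was not above background. Sult1c2a lies at -1.23 and -1.81 and Bpnt1 at 0.76 and 0.51.

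Genes on and beside the path from cysteine to sulfate rose in part. Of 10 measured genes of that path and the steps beside it, 5 rose in females and 3 in males and none fell (medians 1.35 and 0.28). Of all genes 11.7% and 9.34% were called higher. Got1, the cytosolic aspartate aminotransferase that also acts on cysteine sulfinate, rose by 3.12 ± 0.17 in females and 3.59 ± 0.19 in males (2 usable arrays after dexamethasone). Cystathionine beta-synthase, Cbs, rose by 1.34 ± 0.16 and 1.39 ± 0.16, and the persulfide dioxygenase Ethe1 by 1.54 ± 0.27 and 1.12 ± 0.27. The Ethe1 call in males was lost without male dexamethasone 3 (adjusted p = 0.0565).

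Cysteine dioxygenase, Cdo1, rose in females by 1.37 ± 0.19, and its 0.37 in males was not called. Csad, cysteine sulfinate decarboxylase on the branch to taurine, was at least 4.22-fold higher in females after dexamethasone than after vehicle, and it was not called in males. With slide as a block the female difference was 0.99 (adjusted p = 0.0451), below that bound. Sulfite oxidase, Suox, had -0.38 in females and -0.41 in males, not called. Of 6 sulfate and PAPS transporters 1 rose and 2 fell in females (Slc26a1 0.55, Slc26a11 -0.58 and Slc35b2 -0.52) and none was called in males. Each of these 3 calls was lost in 4 or 5 of the 12 fits with 1 array left out (up to 0.106, 0.145 and 0.0640, each without female dexamethasone 2), and all 3 were lost with slide as a block (adjusted p = 0.507, 0.456 and 0.0729). Of 11 sulfatases, which undo sulfation, Arsb rose in both sexes (2.48 ± 0.38 and 1.84 ± 0.38). Arsa fell in males (-0.84 ± 0.21, up to 0.0601 without male dexamethasone 3).

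Of 25 measured regulators known to act on hepatic sulfotransferases, 6 rose and 3 fell in females, and 3 rose and 6 fell in males. Of all genes 11.7% rose and 12.6% fell in females, and 9.34% rose and 10.8% fell in males. The glucocorticoid receptor gene Nr3c1 fell by 1.14 ± 0.17 in females and 1.30 ± 0.17 in males. Nr1i2, encoding the xenobiotic receptor PXR, rose by 0.92 ± 0.19 and 0.88 ± 0.19. Foxa2, a pioneer factor of liver, fell by 2.08 ± 0.35 and 2.67 ± 0.35. In males Nr1i3, encoding CAR, fell by 1.17 ± 0.26 and the oxidative stress factor Nfe2l2 by 1.97 ± 0.24, and Onecut1 by 2.14 ± 0.49.

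Cux2, a female-expressed repressor of male genes, fell by 3.46 ± 0.46 in females and was at least 2.29-fold lower in males after dexamethasone (adjusted p = 0.0171, up to 0.0658 without male vehicle 3). It was at least 16.6-fold higher in females than in males after dexamethasone and 79.7-fold higher after vehicle (6.32 ± 0.46). In females Foxa1 rose by 1.47 ± 0.16. Prlr, the prolactin receptor, was 7.69 ± 0.99 higher in females after dexamethasone and 7.31 ± 0.99 higher after vehicle, and was not called for dexamethasone. With slide as a block the differences were 9.86 and 7.10, and that after vehicle was not called (adjusted p = 0.0529). Stat5b, which carries the growth hormone signal, was not called in any comparison.

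Of 26 genes of hepatic steroid metabolism, 2 fell in females after dexamethasone (Hsd17b2 and Abcc3), where 24.3% of all genes were called, and 2 were called in males, where 20.1% were. In males Cyp7b1, an oxysterol and steroid hydroxylase, rose by 4.51 ± 0.63 and Slco1a4 fell by 0.86 ± 0.23. The calls of Hsd17b2, Abcc3 and Slco1a4 were each lost with some array left out (up to 0.0606, 0.112 and 0.0877, without female dexamethasone 2, female dexamethasone 3 and male vehicle 2), and that of Abcc3 also with slide as a block (0.0856). Between the sexes the same list had 2 higher and 6 lower in females after dexamethasone and 2 higher and 7 lower after vehicle, where 2.31% and 1.71% of all genes were called. The lower counts include Hsd3b5, which was below background on all female arrays and kept through its male arrays. The list also holds genes known to differ by sex, such as Cyp2c11 and Cyp2c12, so these counts do not test for an excess. Cyp2c11, the male steroid hydroxylase, was 377-fold lower in females after dexamethasone and 472-fold lower after vehicle (2 usable arrays of males after vehicle), and Cyp2c12, the female one, was 17.5-fold and 15.7-fold higher. Srd5a1, steroid 5-alpha reductase, was 9.37-fold and 5.73-fold higher in females. Of 2 exocrine pancreas genes measured, Cpa1 was called higher and Cela1 lower in females in both comparisons of the sexes (5.86 and -1.91 after dexamethasone, 6.42 and -2.01 after vehicle). Their part in the sex differences was not tested.

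Among named genes, those with levels most like each member over the 12 arrays are given by Pearson's r. A high r can come from the sex difference alone: Cyp2c13 had means of 8.55 in males after dexamethasone and 8.75 after vehicle, where Sult1e1 fell. Closest to Sult1a1 were Tob2 (r = 0.991), Pfkfb1 (0.987), Arl4a (0.974), Rhob (0.973) and Ppil3 (0.971), and farthest were Man1a1 and Prickle1 (both -0.98). For Sult1e1 they were Nox4 (0.992), Hsd3b5 (0.988), Ust5r, Cyp2c13 and Hsd3b2 (0.983, 0.982 and 0.981), with Arhgef3 (-0.986) and Sall1 (-0.969) at the other end. For Sult2a1 they were Psmb8 (0.964), Srd5a1, Prxl2b, Habp2 and Sult2a2, and for Sult2a2 they were Sult2a6, Iah1 (0.962), Aifm2, Akr1b8 and Sult2a1. Both Sult2a genes had Chrdl1 and Hsd11b1 at the far end (r = -0.959 and -0.923 for Sult2a1, -0.982 and -0.960 for Sult2a2). For Sult1b1 they were Ogdh (0.953), Obp1f, Rab5if, Cyp3a62 and Slc35a4, with Git2 (-0.968) and Wdr6 (-0.949) farthest. Sult1e1 and Sult2a2 ran opposite (r = -0.923), since the first is high in males and the second in females. Sult1e1 was below background on all female arrays, as was Hsd3b5, so the r values of Sult1e1 rest in part on background signal. In females, Nox4 had means of -6.36 after dexamethasone and -5.93 after vehicle, Ust5r -5.71 and -4.67, and Chrdl1 -6.04 and -5.97. All lay below the dimmest signal well above background there (means -4.40 and -3.87), so the same limit holds for these genes. These values describe 12 arrays that share groups, and carry no test.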

How the data were processed

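The authors extracted spot signals with Agilent Feature Extraction 9.1 (9.1.3.1 per the file headers), and the deposited scanner files give intensity per spot, background-subtracted and detrended. The authors' deposited series values are log10 intensity with a scaling not given in the sources used here, and served as an alternative. Levels are log2 scanner signal less the array's 75th percentile over spots that are no controls. The 211 flagged spots were set missing (0 were saturated), spots of a probe were averaged, and 28175 probes were kept, those with 3 or more of 12 arrays well above background and 2 usable ones in each group. The brightest kept probe stood for its gene (24316 genes, 11456 with a symbol). Probes were named through the reference's accessions and symbols, or kept the file's name.

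A mean per group was fitted with limma 3.58.1 (R 4.3.3, statmod 1.5.0, with 8 residual and 2.39 prior degrees of freedom), with Benjamini-Hochberg adjustment in each of 5 comparisons and a second fit over probes. The fit was tested on simulated data with independent noise and no slide effect, so that test does not cover effects of the slides. A bound replaced the fold where a group had no array above background. Sequences were read with Python 3.11.15 and Biopython 1.88, and plotted values with matplotlib 3.10.9. The number of arrays limits precision.

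Members, lists and motifs were chosen with earlier results of these data known. Named genes are the members, the called members of 7 lists (up to 6 per list and comparison), all measured genes of the sulfotransferase and cofactor lists, and for each member the 5 most and 2 least correlated genes. Replicate numbers were checked: residuals of same-numbered arrays correlated from -0.00415 to 0.589, not all above 0.1, so numbers were not used as pairs. The replicate 3 arrays, all on slide 5, did correlate, from 0.181 to 0.589 (median 0.361). The median for arrays of different numbers was -0.100. For replicate 3, slide and number cannot be told apart. Slides were read from barcodes. Alternatives were background correction, normalization, filters, probe choice, slide and replicate blocks, and arrays left out in turn.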

Additional observations from a re-analysis of the deposited data

How the results depend on the processing

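Of 292 values of member genes under settings other than leaving out an array, 266 were counted as kept. Within slide 5, where no test was run, this meant less than a replicate SD from the main value. In the other settings it meant the same direction and the same side of the threshold. By that second rule 257 of 276 were kept when 1 array was left out. The list genes kept 53 of 76 calls in all such fits. The counts of called genes moved more. The female minus male dexamethasone effect had 7 genes, and 28 with normexp background, 4 with probes above background on all arrays and 0 with no filter on dim probes. Slide as a block gave 3084 genes for dexamethasone in females (5917 without) and 252 for female minus male after vehicle (415 without). Slide as a random block (correlation 0.512) gave 7753 for dexamethasone in males, 920 for female minus male after dexamethasone and 654 after vehicle. The arrays of the compared groups alone gave 165 after vehicle. The replicate block gave 850 for female minus male after dexamethasone (562 without). Of the members' calls it changed that of Sult1b1 in males (0.93, adjusted p = 0.0279), and no other. With 1 array left out the counts ran from 3738 to 6043 for dexamethasone in females, 3676 to 5195 in males, 0 to 5 for the difference of effects, 295 to 628 for the sexes after dexamethasone and 258 to 408 after vehicle.

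Within slide 5 a change of sign in an uncalled value was not counted as a reversal, for example for Sult2a1 and Sult2a6 in females. The reversals that were counted were of values that had not been called. They were Sult2a1 in females with slide as a block (0.30), Sult2a2 in females without female dexamethasone 3 (-0.11, up to 0.50 without others), Sult2a2 probe A_44_P435973 in males without male dexamethasone 2 (0.061, down to -0.86 without others), Sult2a6 in females with median centring (0.017), and the difference of effects of Sult2a6 without male dexamethasone 2 (-0.14, up to 0.80 without others) and of TC629230 with normexp background (-1.24). With normexp the fall of TC629230 in males was also not called (-0.75, adjusted p = 0.0944), and Sult1b1 in males was called (adjusted p = 0.0362). With no filter, 2 calls were lost: Sult2a2 in males (adjusted p = 0.0583) and Sult1b1 between the sexes after vehicle (adjusted p = 0.0793). The cause of these shifts was not tested. Signal over background limits Sult1e1 in females, where no change could be measured.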
